A study of Mus musculus with 6 samples.

Results

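Pou5f1, Nanog, Sall4, Klf2, Klf4, Klf5, Esrrb, Tfcp2l1, Tbx3 and Zfp42 are transcription factors of the naive state of mouse embryonic stem (ES) cells, the state that resembles the epiblast before implantation. They were chosen by name, and their introns were taken as those listed inside the RefSeq span of each gene and on its strand. These 10 genes were among 25120 genes with listed introns, and they held 47 of the 219945 introns counted. PolyA-selected RNA was measured in 6 libraries of the ES line VGB6. The titles of the 3 wild-type libraries and of the 3 ZRSR2 knockout libraries (ZRSR2_KO) end in P2, P3 and P5 in each group. The labels do not say what the P means, and its numbers are read here as replicate numbers. ZRSR2 is a protein of the minor spliceosome that recognises 3′ splice sites. The labels do not say how the knockout was made, whether it is 1 clone, in which medium the cells grew or whether replicates are separate cultures. Every p-value therefore measures the spread among these libraries alone, and that spread may be technical.

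The factors work as a network that activates its own members. Pou5f1 (also called Oct4) and Nanog, together with Sox2, form its core, and Sall4 is a zinc finger protein that acts with Pou5f1 and Nanog. Klf2, Klf4 and Klf5 are Kruppel-like zinc finger factors, of which Klf4 is known as a target of the LIF signal through STAT3 and Klf2 as a factor sustained by inhibition of ERK. Esrrb is an orphan nuclear receptor that responds to inhibition of GSK3, Tfcp2l1 responds to both LIF and WNT input, and Tbx3 is a T-box repressor tied to the PI3K branch of LIF signalling. Zfp42 (Rex1) is a zinc finger protein whose loss of expression marks the exit from the naive state.

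Some members are known to bind in front of others, and the stretches before Nanog and Zfp42 are shown because both hold the octamer-like letters that POU factors such as Pou5f1 are known to bind. Each is the 250 bases upstream of a RefSeq transcript start in GRCm38.p6, from chr6:122707239-122707488 on the plus strand for Nanog and from chr8:43307010-43307259 on the minus strand for Zfp42. Capitals mark the match to TTTGCAT.
Nanog: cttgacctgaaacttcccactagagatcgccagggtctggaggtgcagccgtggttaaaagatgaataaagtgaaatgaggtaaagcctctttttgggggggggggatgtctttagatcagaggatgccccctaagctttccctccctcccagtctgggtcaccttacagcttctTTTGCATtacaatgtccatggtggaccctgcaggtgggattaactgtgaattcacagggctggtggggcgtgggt
Zfp42: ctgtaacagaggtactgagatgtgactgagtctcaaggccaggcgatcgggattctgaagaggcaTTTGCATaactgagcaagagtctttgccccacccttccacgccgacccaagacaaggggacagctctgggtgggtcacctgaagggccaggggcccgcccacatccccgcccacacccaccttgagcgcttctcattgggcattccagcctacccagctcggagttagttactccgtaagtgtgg

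RefSeq promoters were matched for 7 of the 10 members, at 10 transcript starts. In the 250 bases upstream, TTTGCAT lay 75 to 69 bases before the Nanog start shown and 185 to 179 bases before the Zfp42 start. Both strands were searched, and 4.12% of all 32851 promoters of this length held the match. ACAATG, the core of a SOX site, lay 67 to 62 bases before the same Nanog start, next to the octamer, and 158 to 153 bases before a Pou5f1 start. It was held by 10.69% of all promoters. GGGTGGG, a Kruppel-like motif, lay upstream of starts of Nanog, Zfp42, Klf2, Esrrb and Pou5f1, and was held by 15.76% of all promoters. AAGGTCA, the Esrrb motif, was in none of the 10 windows and in 4.08% of all promoters. A match is a description of letters and not of binding, and in these windows no match overlapped another. Klf5, Tbx3 and Sall4 are named only.

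Gene levels are sums of reads spliced across the listed introns, given as CPM, a count scaled to a common library size with a correction for composition. The libraries held between 19801687 and 63623214 spliced reads, with wild type 2 the shallowest. The targeted gene Zrsr2 had 660, 2190 and 2129 spliced reads in wild type 2, 3 and 5, compared with 33, 12 and 0 in the knockout. The markers listed for ES cell identity were Pou5f1, Sox2, Nanog, Zfp42, Dppa5a and Utf1. The mean CPM of Dppa5a, a protein of pluripotent cells, was 659 ± 31.1 in wild type against 671 ± 112 in the knockout (SD, n = 3 each). Utf1 was at 85.8 ± 38.5 CPM in wild type against 127 ± 0.66 in the knockout. Pou5f1, Nanog and Zfp42 are given below, and Sox2 has no listed intron. Fibroblast feeder markers varied widely within both groups, and their summed CPM fell from library 2 to 3 to 5 in each. The sums were 395, 188 and 91.8 in wild type 2, 3 and 5, with 469, 305 and 61.7 in the knockout. Of the 12 genes, 1 (Lum) stayed under 1 CPM in all libraries. The defining feeder collagens Col1a1 and Col1a2 were above 0 in all libraries. Trophoblast markers summed to 132 to 217 CPM in wild type, with 107 to 315 in the knockout, and primitive endoderm markers to 122 to 159, with 105 to 153. Of these, 4 of 10 trophoblast and 3 of 9 primitive endoderm genes stayed under 1 CPM throughout. In bulk RNA, fewer cells of a type and less RNA per cell cannot be told apart.

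Level per junction was taken as the median CPM over a gene's main introns, which does not rise with their number. Listed introns of 1 gene still differed, by up to 2.64 times in Tfcp2l1, so smaller steps between genes are uncertain. By this level, Pou5f1 stood far above the other members. Its mean over the 6 libraries was 280 CPM per junction, 9.90 times that of Sall4, which followed with 28.3. Nanog had 25.9, Esrrb 16.96, Klf4 14.3, Klf2 12.98, Klf5 9.87, Zfp42 7.48, Tbx3 1.97 and Tfcp2l1 1.67 CPM per junction. The steps from Pou5f1 to Sall4, from Nanog to Esrrb, from Esrrb to Klf4 and from Zfp42 to Tbx3 had the same order in 6 of 6 libraries. The neighbours Sall4 and Nanog, Klf4 and Klf2, and Tbx3 and Tfcp2l1 kept their order in only 4 of 6 libraries, and Klf2 and Klf5 as well as Klf5 and Zfp42 in 5 of 6. Tbx3 and Tfcp2l1 were therefore counted from far fewer reads per intron than the core factors.

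**Figure D1:**
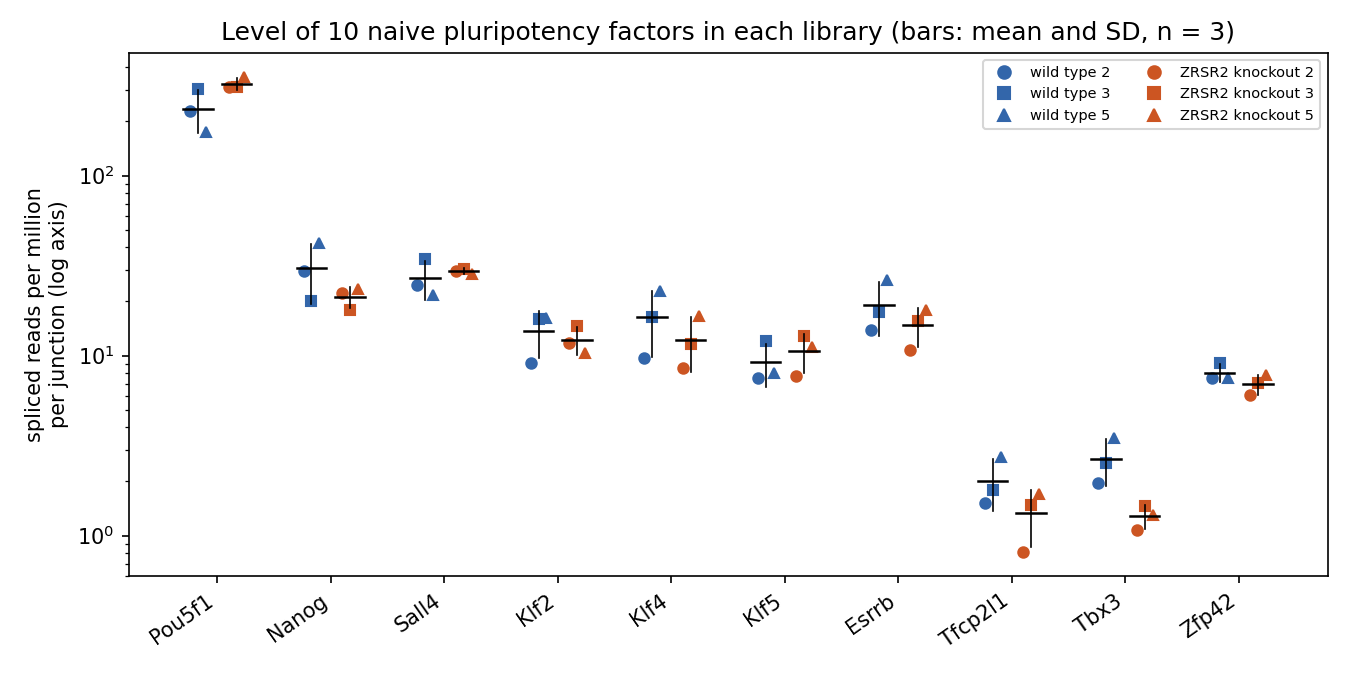
CPM of spliced reads per junction (log axis) for each of the 10 factors, 1 point per library (circle 2, square 3, triangle 5), wild type in blue and ZRSR2 knockout in orange, with the mean and SD of 3 libraries. Pou5f1 lies above all others, Tbx3 and Tfcp2l1 lie lowest, and only for Pou5f1 and Tbx3 do the knockout points stand clear of the wild-type points.

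None of the 10 members passed the test for a change in level between genotypes. With edgeR's quasi-likelihood test over 16950 genes, 0 of 10 had an adjusted p under 0.05, against a background of 0.0177% of all genes tested (3 genes). Without adjustment 3 of 10 had a p under 0.05 (Pou5f1 higher, Nanog and Tbx3 lower), beside 9.94% of all genes. By DESeq2, 1 of the 10 passed and was lower (Tbx3), beside 0.788% called lower of the 15981 genes that DESeq2 gave an adjusted p. The members' median log2 difference, knockout minus wild type, was -0.30, beside -0.01 over all genes tested, with 3 members higher and 7 lower. Of the 10, the groups did not overlap for 1 with the knockout below wild type (8.04% of all genes) and for 1 with the knockout above (7.3% of all genes).

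**Figure D2:**
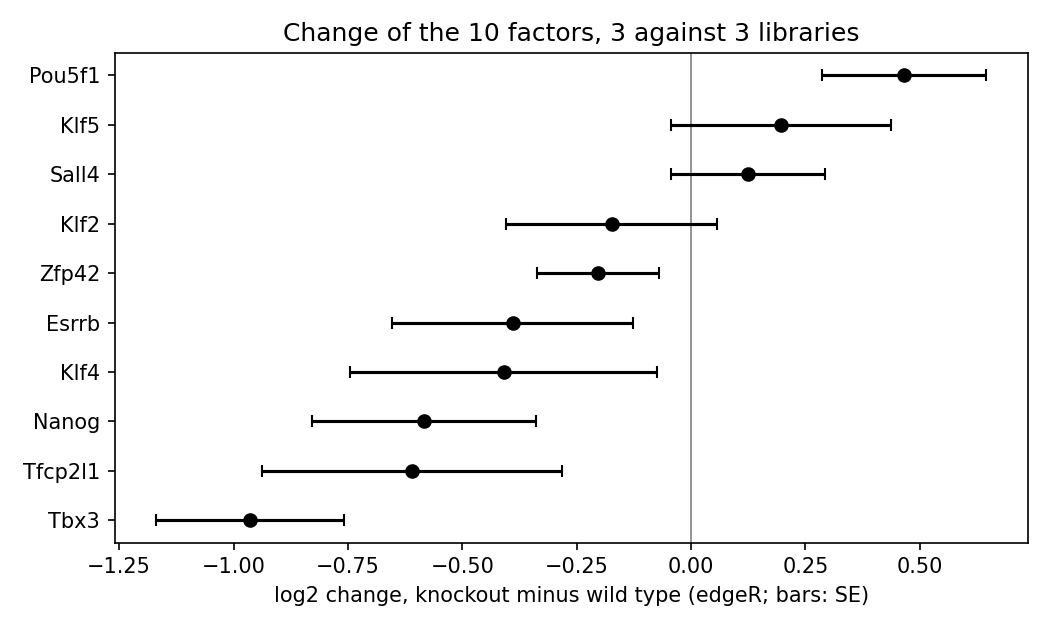
Log2 change in level, knockout minus wild type, for the 10 factors with its standard error, from edgeR over 3 against 3 libraries. Values run from -0.96 for Tbx3 to 0.47 for Pou5f1, and none passed the adjusted threshold.

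Among the core factors, Pou5f1 had 9185, 33184 and 23063 spliced reads in wild type 2, 3 and 5, which are 455, 605 and 352 CPM. The knockout had 37612, 19412 and 25442 reads, which are 619, 621 and 708 CPM. All 3 knockout libraries were above all 3 wild-type libraries, though wild type 3 came close to the lowest of them. The log2 difference was 0.47 ± 0.18 (SE, n = 3 each; edgeR adjusted p = 0.485), a factor of 1.38. Without 1 library it ran from 0.29 (without wild type 5, the lowest) to 0.69 (without wild type 3).

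Nanog, the homeodomain factor that gives the network its stability, had 1781, 3415 and 8570 reads in wild type, or 88.3, 62.2 and 131 CPM. In the knockout it had 4038, 1675 and 2424 reads, or 66.5, 53.6 and 67.5 CPM. Wild type 3 lay within the knockout range, and the wild-type libraries differed among themselves by a factor of 2.10. The log2 difference was -0.58 ± 0.24 (SE, n = 3 each; edgeR adjusted p = 0.498). Without 1 library it ran from -0.81 (without wild type 3) to -0.26 (without wild type 5).

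Sall4 had 999, 3796 and 2862 reads in wild type against 3600, 1906 and 2044 in the knockout. In CPM this was 49.5, 69.2 and 43.6 against 59.3, 61.0 and 56.9, so the knockout values lay inside the wild-type range. The log2 difference of 0.13 ± 0.17 (SE; edgeR adjusted p = 0.792) went to -0.01 without wild type 5 and to 0.35 without wild type 3.

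The Kruppel-like factors overlapped between the groups. Klf2 had 368, 1744 and 2122 reads in wild type against 1429, 909 and 745 in the knockout, or 18.2, 31.8 and 32.4 against 23.5, 29.1 and 20.7 CPM. Klf4 had 766, 3611 and 6170 reads in wild type against 2133, 1454 and 2439 in the knockout, or 38.0, 65.8 and 94.1 against 35.1, 46.5 and 67.9 CPM. Klf5, a factor shared with the trophoblast, had 302, 1321 and 1052 reads against 939, 804 and 798, or 15.0, 24.1 and 16.0 against 15.5, 25.7 and 22.2 CPM. For Klf4 the highest wild-type library was 2.48 times the lowest and the highest knockout library 1.93 times the lowest, wider than the difference between the groups. The log2 differences were -0.17 ± 0.23 for Klf2, -0.41 ± 0.34 for Klf4 and 0.20 ± 0.24 for Klf5 (SE, n = 3 each), with edgeR adjusted p-values of 0.790, 0.655 and 0.769. Without 1 library they ran from -0.395 (without wild type 2) to -0.041 (without wild type 5) for Klf2 and from -0.70 (without knockout 5) to -0.064 (without wild type 5) for Klf4. For Klf5 they ran from 0.039 (without knockout 3) to 0.44 (without wild type 3).

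Among the effectors of the LIF and WNT inputs, Esrrb had 1091, 3712 and 6750 reads in wild type against 2501, 1891 and 2521 in the knockout. These are 54.1, 67.7 and 103 CPM against 41.2, 60.5 and 70.2 CPM, with knockout 2 the lowest and wild type 5 the highest. The log2 difference was -0.39 ± 0.26 (SE; edgeR adjusted p = 0.592). Tfcp2l1, a grainyhead-like factor, had 464, 1541 and 2829 reads against 719, 718 and 979, or 23.0, 28.1 and 43.1 CPM against 11.8, 23.0 and 27.3 CPM. The groups overlapped, and the log2 difference was -0.61 ± 0.33 (SE; edgeR adjusted p = 0.531). Without 1 library the differences ran from -0.58 (without wild type 2) to -0.09 (without wild type 5) for Esrrb and from -0.86 (without knockout 5) to -0.31 (without wild type 5) for Tfcp2l1, and without knockout 2 they were -0.20 and -0.33.

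Tbx3 had the largest difference of the 10. It had 341, 1150 and 1869 spliced reads in wild type against 608, 378 and 433 in the knockout, or 16.9, 21.0 and 28.5 CPM against 10.01, 12.1 and 12.1 CPM. Every knockout library was below every wild-type library. The log2 difference was -0.96 ± 0.21 (SE, n = 3 each), a factor of 0.513, with an edgeR p of 0.00147 before and 0.349 after adjustment over all genes. DESeq2 gave -0.96 ± 0.22 (SE) with an adjusted p of 0.00312, so the call depended on the tool. In edgeR it was -0.74 without wild type 5 and between -0.88 and -1.12 without any other single library. Fibroblasts also express Tbx3. The feeder markers' summed CPM was 395, 188 and 91.8 in wild type 2, 3 and 5 and 469, 305 and 61.7 in the knockout, so wild type 5, with the highest Tbx3, had the lowest feeder sum of its group, and the part of feeder cells in the Tbx3 difference was not tested.

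Zfp42 was the steadiest member within wild type and over all libraries. Its reads were 868, 2965 and 2947 in wild type against 2200, 1325 and 1611 in the knockout, or 43.0, 54.0 and 44.9 CPM against 36.2, 42.4 and 44.9 CPM. The highest library was 1.49 times the lowest, the smallest such ratio of the 10. The log2 difference was -0.20 ± 0.13 (SE; edgeR adjusted p = 0.583). Without 1 library it ran from -0.27 to -0.096 (without wild type 3), with -0.12 without knockout 2.

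The libraries of wild type differed among themselves in a pattern that ran through the members, and it was looked at after the values were seen. Wild type 5 was the highest of the 6 libraries for Nanog, Klf2, Klf4, Esrrb, Tfcp2l1 and Tbx3 (6 of 10 members, beside 26.2% of all genes tested), and the lowest for Pou5f1 and Sall4 (2 of 10, beside 22.4%). Knockout 2 was the lowest for 5 members, Klf4, Esrrb, Tfcp2l1, Tbx3 and Zfp42, beside 17.7% of all genes. Dnmt3b, the de novo DNA methyltransferase that is high in formative and primed cells, was at 393 CPM in wild type 5 and at 681 and 1159 in wild type 2 and 3. Knockout libraries had Dnmt3b at 1066, 1206 and 1253 CPM. The summed CPM of 7 formative and primed marker genes was 772 in wild type 5, against 1272 and 1942 in the other wild-type libraries and 1623 to 2003 in the knockout. Dnmt3a and Dnmt3b made up 685 of the 772 CPM. The other 5 genes of that list summed to 86.7 CPM in wild type 5, to 120 and 146 in wild type 2 and 3 and to 80.5 to 91.0 in the knockout libraries, and Otx2, a formative factor, was higher in wild type 5 (2.68 CPM) than in any knockout library (1.83 to 2.34). The part of this pattern in the differences between genotypes was not tested.

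**Figure D3:**
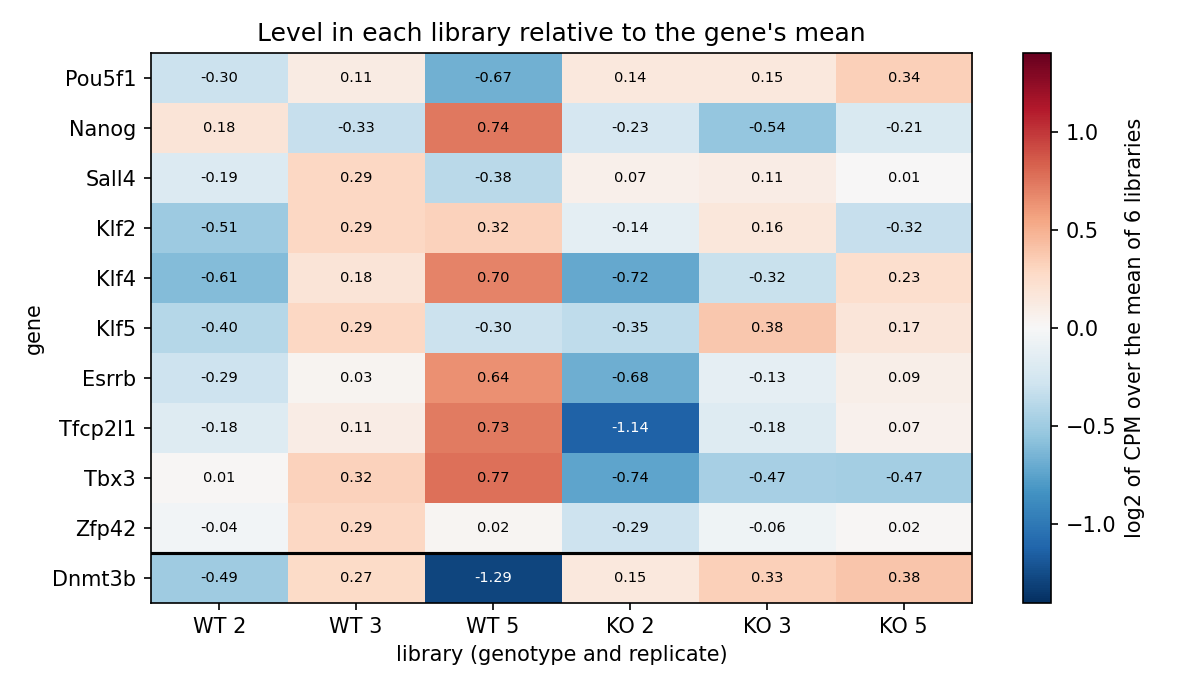
Log2 of the CPM in each library over the mean of the 6 libraries, for the 10 factors and, under the line, Dnmt3b, with blue below and red above the mean. In wild type 5 the values of Nanog, Klf4, Esrrb, Tfcp2l1 and Tbx3 are 0.64 to 0.77 while Pou5f1 is at -0.67 and Dnmt3b at -1.29.

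The genes around the members were read from 6 lists of the network, its inputs and the states it separates, with no gene of any list past the edgeR or the DESeq2 threshold. Of 15 other naive network factors tested, 9 were higher and 6 lower (median log2 difference 0.23), the most abundant being Mybl2, a cell cycle factor, with 520 ± 73.3 CPM in wild type against 605 ± 48.9 in the knockout, and Tcf3, an E protein, with 432 ± 23.2 and 423 ± 33.2 (SD, n = 3 each). Sox2 has no listed intron. Of 12 genes of the LIF and STAT3 input, 5 were higher and 7 lower (median -0.06), and Stat3 itself, which carries the LIF signal to the nucleus, was at 118 ± 12.2 and 103 ± 13.5 CPM. The phosphatase Ptpn11 of the same list was at 93.5 ± 6.80 and 83.7 ± 7.45 CPM. Before adjustment, an edgeR p under 0.05 was found for 2 of the 15 network factors, 0 of the 12 LIF genes, 4 of the 11 WNT genes, 0 of the 9 FGF4 and ERK genes, 3 of the 16 naive targets and 1 of the 7 formative and primed genes, beside 9.94% of all genes.

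Of 11 genes of the WNT and GSK3 input, 1 was higher and 10 lower (median log2 difference -0.18). Its most abundant genes were Ctnnb1, which encodes beta-catenin, with 555 ± 38.3 CPM in wild type against 500.2 ± 40.7 in the knockout, and Tcf7l1, a repressor of pluripotency genes that beta-catenin relieves, with 111 ± 11.2 and 118 ± 14.8 CPM. Of 9 genes of FGF4 and ERK output, 7 were higher and 2 lower (median 0.24), led by the ETS factor Etv5 with 227 ± 68.7 and 283 ± 46.8 CPM and the receptor Fgfr1 with 167 ± 8.57 and 159 ± 5.13 CPM. Of 16 target and marker genes of the naive state, 10 were higher and 6 lower (median 0.03), with Tdgf1, a co-receptor for Nodal, at 591 ± 23.7 and 473 ± 18.8 CPM next to Dppa5a. Of 7 formative and primed genes tested, 5 were higher and 2 lower (median 0.25), led by Dnmt3b with 744 ± 387 and 1175 ± 97.1 CPM and Dnmt3a with 467 ± 172 and 556 ± 102 CPM. Over all 16950 genes tested, 8312 were higher and 8638 lower.

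Intron retention was measured as MSI, the deposited percent of unspliced signal, in which reads across the 2 exon-intron boundaries are set against reads spliced across the intron. A minor spliceosome protein is known to act on few introns, so the question was whether any listed intron of these genes was among those that differed. Listed introns need not be all introns of a gene. In Pou5f1 (chr17:35506032-35510777) they begin at 35509539, and in Klf5 (chr14:99298691-99313412) they end at 99303417. Intron numbers are therefore those of the list, and the results cover listed introns only. Over all listed introns of a member, pooled MSI in wild type was lowest for Klf5 (0.50 ± 0.14%) and highest for Tbx3 (5.70 ± 0.78%), with Pou5f1 at 0.76 ± 0.09% and Nanog at 2.09 ± 0.28% (SD, n = 3). In the knockout the same genes had 0.51 ± 0.10%, 6.57 ± 1.52%, 0.78 ± 0.11% and 2.25 ± 0.41%. Over all introns of the libraries it was 1.65 to 1.75% in wild type and 1.56 to 1.89% in the knockout. Introns of Tbx3 and Zfp42 that share an end also share the unspliced reads there, which the pooled value counts more than once. In Tbx3, intron 7 held 228 unspliced reads over the 6 libraries, 222 of them at its acceptor end.

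**Figure D4:**
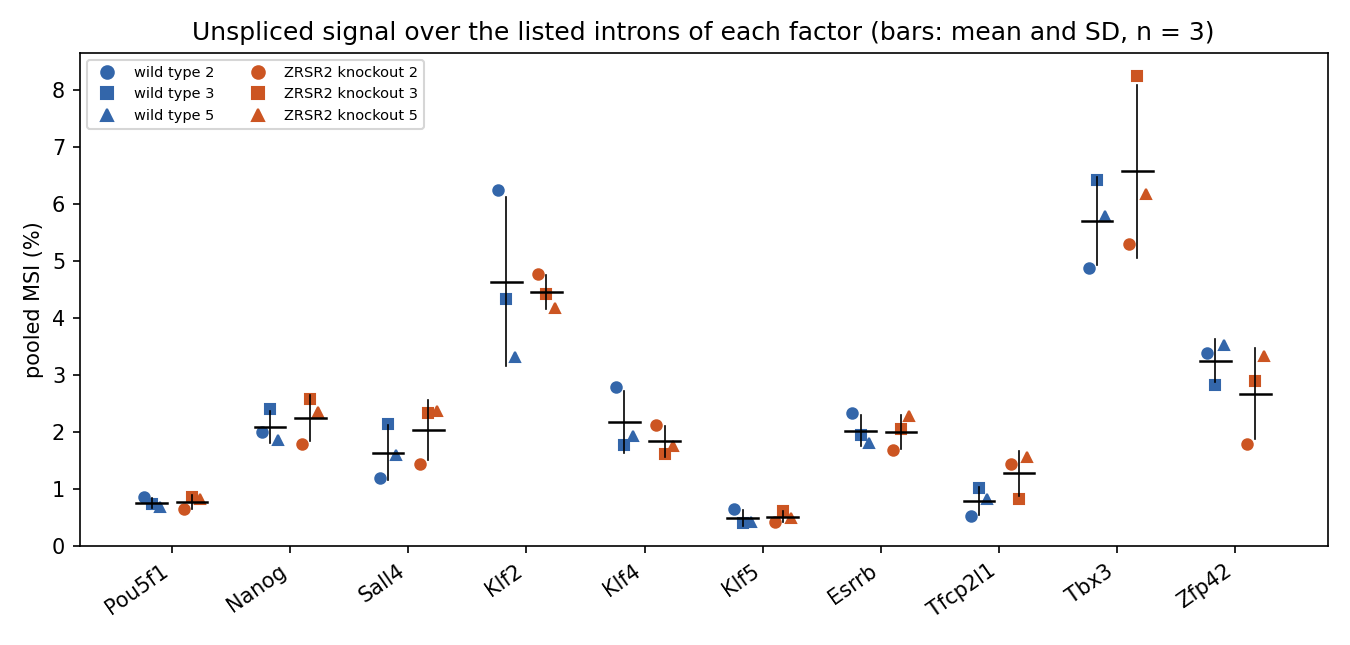
Pooled MSI, the percent of unspliced signal over the listed introns of each factor, 1 point per library (circle 2, square 3, triangle 5), wild type in blue and ZRSR2 knockout in orange, with the mean and SD of 3 libraries. The groups overlap for every member.

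No member intron passed the retention test. Of the 47 introns, 46 had the 20 reads in every library that the test asked for. With edgeR 0 of these 46 passed, against 0.0273% of all 95371 introns tested (26 introns), and 2 of 46 had a p under 0.05 before adjustment, beside 4.14% of all. By limma 0 of 46 passed, as did 0.0% of all introns. The median log2 odds, knockout minus wild type, was 0.11 over the member introns and 0.02 over all introns tested, with 26 member introns higher and 20 lower. The read minimum held for both kinds together, so these directions take in introns with almost no unspliced reads. Tfcp2l1 intron 1 had 0 unspliced reads in all and counts as higher (log2 odds 0.67, SE 7343). Introns 4 and 8 of that gene, also counted as higher, had 4 and 3 unspliced reads in all.

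Both introns with a p under 0.05 before adjustment lie in Tbx3 and differed in opposite directions. Listed intron 4, 255 bases long at chr5:119675303-119675557, had 8, 6 and 31 unspliced beside 56, 142 and 242 spliced reads in wild type, and 4, 0 and 1 beside 71, 51 and 59 in the knockout. Its MSI was 6.67, 2.07 and 6.02% against 2.74, 0.0 and 0.84%, which overlapped. Listed intron 5, 1796 bases long at chr5:119675705-119677500, had 2, 5 and 6 unspliced beside 35, 126 and 215 spliced reads in wild type, and 8, 6 and 4 beside 52, 41 and 39 in the knockout. Its MSI was 2.78, 1.95 and 1.38% against 7.14, 6.82 and 4.88%, with no overlap of the groups. How many of all introns separate in this way was not counted. The deposited covered fraction of intron 4 was 0.765, 1.0 and 1.0 in wild type 2, 3 and 5 against 0.733, 0.0 and 0.012 in the knockout. That of intron 5 was 0.118, 0.772 and 0.621 against 0.258, 0.151 and 0.333. For intron 5, wild type 2, with the fewest spliced reads, thus lay below every knockout library. The part of read depth in these fractions was not tested. The log2 odds were -1.77 ± 0.78 (SE; edgeR adjusted p = 1, and 0.0230 before adjustment) for the former and 1.91 ± 0.75 (SE; adjusted p = 1, and 0.0109 before adjustment) for the latter. At this depth each value rests on at most 31 unspliced reads in a library.

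The most retained tested intron of each member is given here with its MSI in every library. For the core factors, Pou5f1 intron 2 (148 bases, chr17:35510140-35510287) had 1.36, 1.25 and 1.15% in wild type against 1.11, 1.34 and 1.33% in the knockout, from 84374 spliced reads in all. Nanog intron 2 (825 bases, chr6:122711804-122712628) had 3.09, 3.81 and 3.18% against 2.48, 3.69 and 3.44%. Sall4 intron 1 (1693 bases, chr2:168752741-168754433) had 1.28, 2.86 and 1.92% against 1.83, 2.88 and 3.16%. The groups overlapped in all 3. Among the Kruppel-like factors, Klf2 intron 2 (501 bases, chr8:72320243-72320743) had 7.47, 4.12 and 3.88% against 4.59, 4.76 and 4.36%, with the highest value in the shallowest library. Klf4 intron 1 (116 bases, chr4:55531751-55531866) had 4.35, 3.12 and 2.01% against 3.90, 3.39 and 2.14%, and Klf5 intron 1 (2158 bases, chr14:99299223-99301380) had 0.997, 0.769 and 0.819% against 0.75, 1.07 and 0.93%. These too overlapped.

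Of the remaining factors, Esrrb intron 4 (7770 bases, chr12:86506511-86514280) had 5.29, 3.46 and 3.81% in wild type against 3.40, 4.14 and 4.36% in the knockout. Tfcp2l1 intron 10 (1124 bases, chr1:118664992-118666115) had 1.59, 2.33 and 4.29% against 4.11, 1.01 and 4.95%, from 26 unspliced reads in all. Zfp42 intron 4 (3770 bases, chr8:43300706-43304475) had 4.79, 3.60 and 5.26% against 2.16, 3.54 and 4.43%. Tbx3 intron 7 (1562 bases, chr5:119678833-119680394) was the most retained of all, with a pooled MSI of 16.2%. It had 12.0, 19.7 and 11.8% in wild type against 11.2, 30.6 and 25.0% in the knockout, so knockout 2 lay below every wild-type library while the other knockout libraries lay above. The log2 odds of these 10 introns ran from -0.47 (Zfp42) to 0.61 ± 0.48 (SE, Tbx3), with an edgeR adjusted p of 1 for each.

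Unspliced reads often sat at only 1 end of an intron, which a percent over both ends does not show. Over the 6 libraries, Pou5f1 intron 2 had 1954 unspliced reads at its donor (5′) end and 153 at its acceptor (3′) end, and Sall4 intron 1 had 469 and 34. Esrrb intron 3 (423 bases, chr12:86505926-86506348) went the other way with 7 and 350, as did Esrrb intron 4 with 3 and 252 and Esrrb intron 1 with 1 and 82. Tbx3 intron 7 had 6 at the donor end and 222 at the acceptor end, so its high MSI came almost wholly from the acceptor end, and Nanog intron 2 had 63 and 417. Of 26 member introns with at least 50 unspliced reads, 2 had over 90% of them at the donor end (7.11% of all 32736 such introns) and 4 had under 10% there (17.2% of all such introns). The median share at the donor end was 27.0% in the member introns and 41.5% in all such introns. A transcript that keeps a whole intron can give reads at both boundaries, so reads at 1 end alone are not a measure of a whole retained intron.

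The use of single introns within a gene gave no call either. This test set the spliced reads of an intron against the spliced reads summed over its gene's other introns, and asks whether a start, exon or end is used more. With edgeR 0 of 47 member introns passed, as did 0.0% of the 143543 introns tested, and 3 of 47 had a p under 0.05 before adjustment, beside 4.35% of all. By limma 0 of 47 passed, as did 0.0% of all introns. The 3 were Tfcp2l1 intron 4 (chr1:118652975-118653715) with a log2 odds of -0.59 (edgeR adjusted p = 1, and 0.00361 before adjustment), Tfcp2l1 intron 12 (chr1:118668735-118669388) with 0.38 (adjusted p = 1, and 0.0258 before adjustment) and Nanog intron 3 (chr6:122712716-122713141) with -0.13 (adjusted p = 1, and 0.0403 before adjustment).

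Alternative junctions were listed in Tbx3 and Zfp42 only. A spliced count here holds every read that spans the intron, so reads over a longer intron are also counted at a shorter one inside it: in 13455 nested pairs with over 50 reads at the longer intron, 0 had more reads there than at the shorter one in any library. For this reason the reads over the longer intron are given as a percent of those over the shorter. With the test set out for junctions that share an end, edgeR passed 0 of 8 member junctions and 0.0% of all 20106, with 0 of 8 at a p under 0.05 before adjustment beside 2.13% of all. By limma 0 of 8 passed, beside 0.0149% of all. The Zfp42 introns whose acceptors lie close together had equal spliced counts in every library, so this test could show no difference for them. In the nested pairs, reads of the longer intron are also counted at the shorter, which draws the comparison towards no difference. The 0 of 8 therefore cannot decide whether these junctions changed. With reads of the shorter intron alone as the base, added after the counting was understood, edgeR passed 0 of 4 member pairs beside 0.0206% of all 9732, with 0 of 4 at a p under 0.05 before adjustment beside 6.19% of all, and limma 0 of 4 beside 0.0103% of all.

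The Tbx3 pair flanks a middle exon of 60 bases at chr5:119675243-119675302, the exon whose inclusion is known to give the Tbx3+2a form, with an insert in the DNA-binding T-box. In wild type 2, 3 and 5 the reads over the whole stretch were 44, 112 and 187 and those over the upstream intron 59, 144 and 283, which is 74.6, 77.8 and 66.1%. In the knockout they were 59, 41 and 46 of 93, 51 and 60, which is 63.4, 80.4 and 76.7%. Against the downstream intron the percent was 78.6, 78.9 and 77.3 in wild type against 83.1, 80.4 and 78.0 in the knockout. The groups overlapped on both sides, and the log2 odds was 0.03 ± 0.38 upstream and 0.21 ± 0.35 downstream (SE, n = 3 each; edgeR adjusted p = 0.9998 and 0.940). A read that includes so short an exon can cross both of its sides and be counted over the whole stretch: among 82 cassette exons of 55 to 65 bases, the lowest ratio of longer to shorter was 0.207. The percent is therefore an upper limit of skipping, and the wild-type and knockout values can be compared but not read as an isoform share.

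The Zfp42 pair flanks a middle exon of 105 bases at chr8:43302875-43302979, upstream of the last listed intron. Reads over the whole stretch were 159, 549 and 531 in wild type, of 162, 591 and 562 over the upstream intron, which is 98.1, 92.9 and 94.5%. In the knockout they were 407, 245 and 302 of 421, 264 and 318, which is 96.7, 92.8 and 94.97%. Nearly all reads thus passed over this exon in both groups. The log2 odds was 0.09 ± 0.43 upstream and 0.21 ± 0.36 downstream (SE, n = 3 each; edgeR adjusted p = 0.991 and 0.943). Zfp42 introns 1 and 2, whose acceptors lie close together at chr8:43304560-43306840 and chr8:43304558-43306840, had the same spliced count in each of the 6 libraries and cannot be told apart in these counts.

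**Figure D5:**
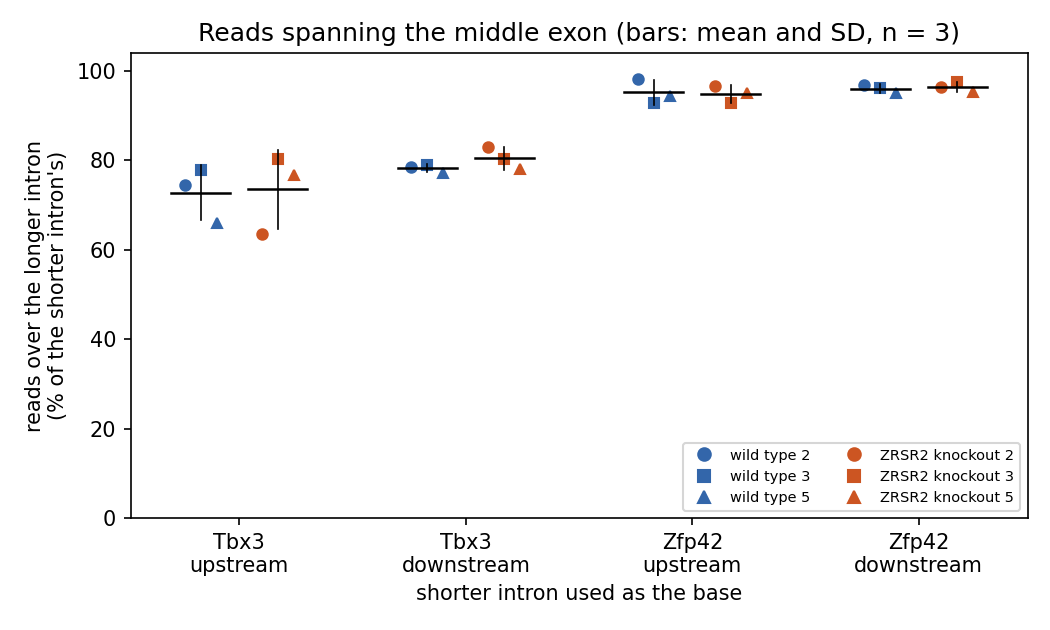
Reads over the longer intron as a percent of those over the shorter intron upstream or downstream of the middle exon, for Tbx3 and Zfp42, 1 point per library (circle 2, square 3, triangle 5), wild type in blue and ZRSR2 knockout in orange, with the mean and SD of 3 libraries. Tbx3 runs from 63.4 to 83.1% and Zfp42 from 92.8 to 98.1%, with the groups overlapping in each column.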

How the data were processed

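Total RNA of VGB6 ES cells was polyA-selected and made into TruSeq libraries, per the labels' protocols. The authors deposited 1 table of introns per library (mm10, per the submitters' processing notes) of raw counts (per the file headers A1, A2 and Exon), a fraction (CovFrac) and a percent (MSI). Not given in the sources used here were the aligner, the counter and the strand setting. Since MSI could be recomputed from the counts as 100 × (A1 + A2) over (A1 + A2 + 2 × Exon), A1 and A2 were read as unspliced and Exon as spliced reads. The deposited fraction was used only to look for coverage differences in member introns. Listed starts count from 0 (62.7% of 2062 cassette exons are multiples of 3 bases in that reading, 19.5% otherwise), and coordinates here count from 1. Exon counts every read that spans an intron, so gene sums count some reads more than once.

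Introns went to genes by position in RefSeq GRCm38.p6. The strand came from the promoter table for 7 members and from the listed introns for Klf5 and Tbx3. The span of Sall4 holds listed introns of both strands, and its strand was taken as minus from textbook knowledge and 2 listed introns. Introns are numbered as listed. Counts were fitted with edgeR 4.0.16 in R 4.3.3 (TMM, filterByExpr, quasi-likelihood F test, adjusted p under 0.05, Benjamini-Hochberg over all features). Retention, usage and junction tests were interactions of read kind with genotype, with a term per sample; minimums were 20 reads of both kinds in every library (retention), 30 reads (usage), and 30 reads with 10 alternative (junctions). Scripts were tested on simulated data. Alternatives used DESeq2 1.42.0 and limma 3.58.1 (0.5 added to counts), other filters and scalings, single libraries left out, and, added after seeing the data, innermost introns alone and reads of the shorter intron alone. Members and gene lists were chosen with earlier results of these data known. All members, any intron past a threshold, the most retained intron of each member, and the 2 most abundant genes of each other list were to be named; others named were chosen after their values were seen.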

Additional observations from a re-analysis of the deposited data

Results flagged for a closer look

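Tfcp2l1 intron 3 (chr1:118652378-118652868, 491 bases) was left out of the retention test because a library had under 20 reads, yet the knockout libraries all had a higher MSI than the wild-type ones. It had 0, 1 and 1 unspliced beside 15, 81 and 130 spliced reads in wild type, an MSI of 0.0, 0.61 and 0.38%. The knockout had 4, 3 and 4 beside 21, 33 and 43, an MSI of 8.70, 4.35 and 4.44%, with a mean of 5.83%. The value rests on 13 unspliced reads in all, it was picked after the values were seen, and it was not tested. How many of all introns separate in this way was not counted. The deposited covered fraction of this intron overlapped between the groups, at 0.0 to 0.356 in wild type and 0.132 to 0.454 in the knockout.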

How the results depend on the processing

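In gene level, retention, usage and alternative junctions, 0 members or member introns passed in every edgeR and limma fit run, with the range over single libraries left out at 0 to 0 in each. For alternative junctions, the test as designed was limited by shared and equal counts, as set out above. With DESeq2 1 member passed in gene level (Tbx3). Over all genes, 3 calls became 212 with DESeq2, 7 with no filter and 0 to 35 without 1 library (0 without knockout 3, 1 without wild type 2 or wild type 5, 22 without knockout 5, 35 without wild type 3). Over all introns, 26 retention calls became 0 with limma, 6 and 10 with the left or right end only, and 7 to 25 without 1 library. Over all alternative junctions, 0 calls became 3 with limma and 1 without wild type 2.

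Deviations of same-numbered libraries correlated weakly, at 0.063, 0.068 and 0.016 for numbers 2, 3 and 5. The closest knockout library was the same-numbered one for wild type 2 and wild type 3, and knockout 2 (0.058) for wild type 5. With 3 libraries per group, these values cannot decide whether equal numbers mark a shared source. The summed CPM of the feeder markers fell from library 2 to 3 to 5 in both groups, and what equal numbers share was not tested. With the replicate block, 0 members passed in any of the tests, and the calls over all genes were 8 and over all introns 23 for retention.

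Of 60 gene-level differences without 1 library, 59 kept their direction, as did all 70 under other settings. Sall4 gene level went to -0.01 without wild type 5, among log2 differences of -0.01 to 0.35 without 1 library. For the most retained introns, 46 of 60 log2 odds without 1 library and 52 of 58 under other settings kept their direction. The exceptions without 1 library ran from -0.12 to 0.13 in Esrrb intron 4, -0.20 to 0.21 in Klf2 intron 2, -0.20 to 0.40 in Klf4 intron 1, -0.22 to 0.084 in Nanog intron 2, -0.053 to 0.10 in Pou5f1 intron 2 and -0.41 to 0.67 in Tfcp2l1 intron 10. With the right end only, it was 0.029 in Esrrb intron 4 and -0.034 in Klf4 intron 1. With the left end only it was 0.24 in Klf2 intron 2, -0.13 in Klf5 intron 1, -0.49 in Sall4 intron 1 and -2.30 in Tfcp2l1 intron 10. The cause was not tested.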

Other observations

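A plus-strand intron of the tables lies inside the span of Sall4, a minus-strand gene, at chr2:168766245-168766781, and was outside the rule for members. It had 501, 1842 and 1470 spliced reads in wild type 2, 3 and 5 and 1505, 1046 and 1080 in the knockout, numbers of the size of Sall4's own introns. Its reads were counted in no value of Sall4 above.

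In the lists of other cell types, 0 genes passed the edgeR or the DESeq2 threshold. Of 9 trophoblast genes tested 6 were higher and 3 lower in the knockout, of 6 primitive endoderm genes 2 were higher and 4 lower, and of 10 feeder genes 6 were higher and 4 lower. Before adjustment an edgeR p under 0.05 was found for 2, 2 and 0 of them, beside 9.94% of all genes. The knockout lay wholly below wild type for 2 trophoblast and 1 primitive endoderm genes (8.04% of all genes) and wholly above for 1 trophoblast gene (7.3% of all genes). The most abundant trophoblast genes were Tfap2c, an AP-2 factor, with 98.5 ± 37.5 CPM in wild type against 70.6 ± 3.27 in the knockout, and the keratin Krt8 with 37.7 ± 11.6 against 67.4 ± 56.7 (SD, n = 3 each). The most abundant primitive endoderm genes, the basement membrane genes Col4a1 and Lama1, had 95.4 ± 18.2 against 84.9 ± 26.4 CPM and 33.5 ± 7.80 against 36.0 ± 11.9 CPM.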
